A study of Mus musculus with 8 samples.

Results

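Capillary fatty acid uptake genes were followed in endothelial cells sorted from mouse colon 2 days after bone marrow transplantation. They are 8 listed genes of 22180 measured: Lpl, Gpihbp1, Angptl4, Cd36, Fabp4, Fabp5, Meox2 and Tcf15. All 8 were on the array, and none was chosen by a threshold on its values. Each gene is read from its brightest probe set that carries a single gene symbol.

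Fatty acids reach tissues mostly as triglycerides inside lipoproteins. Lipoprotein lipase (Lpl), made by cells under the vessel wall, is picked up by Gpihbp1 on capillary endothelium, carried to the lumen and there splits the triglycerides, and the secreted protein Angptl4 inactivates it. The freed fatty acids enter endothelial cells with the help of the scavenger receptor Cd36 and are bound inside the cell by Fabp4 and Fabp5. Meox2 and Tcf15 are transcription factors that act as a pair in endothelium of heart and muscle, where they drive Cd36 and Lpl. This machinery is best known from heart, skeletal muscle and fat. Several of its genes are also used outside endothelium, Fabp4, Lpl and Cd36 in adipocytes, Lpl and Fabp5 in macrophages and Angptl4 in gut epithelium.

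All 8 recipients were female C57BL/6 mice that had 5 days of busulfan and cyclophosphamide and then received 15000000 bone marrow cells and 2000000 T cells. Donors were C57BL/6 mice in the syngeneic group (n = 4) and LP/J mice in the allogeneic group (n = 4), in which donor T cells can attack the host (graft-versus-host disease, GVHD). Colon was digested with collagenase IV for 60 min, and cells that carried CD31 and lacked CD45 and CD11b were sorted, so that each array holds RNA of sorted cells and no array shows colon without transplantation. The labels call the arrays biological replicates, and the design text counts 4 mice per group.

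Values are log2 signals, on which a difference of 1 is a doubling. Medians over probe sets lay between 4.68 and 4.79 on all arrays. No detection calls were used; 3 Y-linked genes, which female tissue lacks, read at most 3.18 and serve as a guide to background. Endothelial genes were high: Pecam1, which encodes the sort marker CD31, averaged 10.4 over the 8 arrays. Cdh5, which encodes VE-cadherin and was not used in the sort, averaged 9.69 in the allogeneic and 10.3 in the syngeneic group. Epithelial transcripts were high as well, with a mean over 24 colon epithelial markers between 9.86 and 10.6 per array, so a signal cannot be assigned to endothelial cells alone. Syngeneic arrays 3 and 4 stand apart from the rest. Over 26 endothelial markers their means were 8.59 and 9.48, against 7.34 to 7.98 on the other 6 arrays, and their epithelial means (10.2 and 9.86) were the lowest. In such bulk samples fewer cells of a type and less RNA per cell cannot be told apart. Results below are therefore also given without syngeneic arrays 3 and 4.

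Promoter sequence was at hand for 2 of the 8 genes, Cd36 and its regulator Meox2. They are shown because Tcf15 is a basic helix-loop-helix factor, a class that binds the E-box, and both genes rose and fell with the endothelial markers over the arrays. The 250 bases before each RefSeq start (GRCm38.p6) are given 5′ to 3′ along the gene, with E-boxes (CANNTG, the same motif on both strands) in capitals. The Cd36 window is chr5:17835897-17836146 on the minus strand, and the Meox2 window chr12:37108290-37108539 on the plus strand.
Cd36: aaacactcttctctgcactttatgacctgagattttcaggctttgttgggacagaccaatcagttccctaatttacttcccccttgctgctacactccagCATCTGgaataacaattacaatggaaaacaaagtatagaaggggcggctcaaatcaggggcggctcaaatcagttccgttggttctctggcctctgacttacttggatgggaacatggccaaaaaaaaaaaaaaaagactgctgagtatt
Meox2: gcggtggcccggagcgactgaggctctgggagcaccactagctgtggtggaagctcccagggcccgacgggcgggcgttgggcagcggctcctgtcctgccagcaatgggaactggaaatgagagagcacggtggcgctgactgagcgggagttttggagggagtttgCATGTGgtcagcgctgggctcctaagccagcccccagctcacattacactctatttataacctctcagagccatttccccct
Each window holds 1 E-box. Of 32851 promoter windows of the same length 66.2% hold at least 1, so its presence is common. The homeodomain core TAATTA, of the class that Meox2 belongs to, has 0 matches in either window on either strand and is found in 4.84% of all windows. The nuclear receptor core site AGGTCA, part of the element bound by PPAR factors, has 1 match before Cd36 and 0 before Meox2, and is found in 4607 of the 32851 windows. These are letter matches in 1 window per gene, and Cd36 is known to have further starts.

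The first question was whether the 8 genes differed between donor types. None did at an adjusted p below 0.05 (limma, Benjamini-Hochberg over all 22180 genes), where 0.469% of all genes passed. At an unadjusted p below 0.05 only Gpihbp1 passed, against 13.2% of all genes in either direction and 5.43% with a lower allogeneic mean. The log2 change, allogeneic minus syngeneic, was negative for 7 of the 8 genes and positive for Lpl, with a median of -0.40 against -0.01 for all genes; 51.0% of all genes had a negative change. For every one of the 8 the allogeneic and syngeneic arrays overlapped, while 8.55% of all genes had groups that did not overlap, 3.36% with the allogeneic arrays lower and 5.18% with them higher. Pecam1 (-0.51 ± 0.33 SE) and Cdh5 (-0.62 ± 0.37 SE) had negative changes of the same order and did not pass either (limma adjusted p = 0.557 and 0.514).

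**Figure D1:**
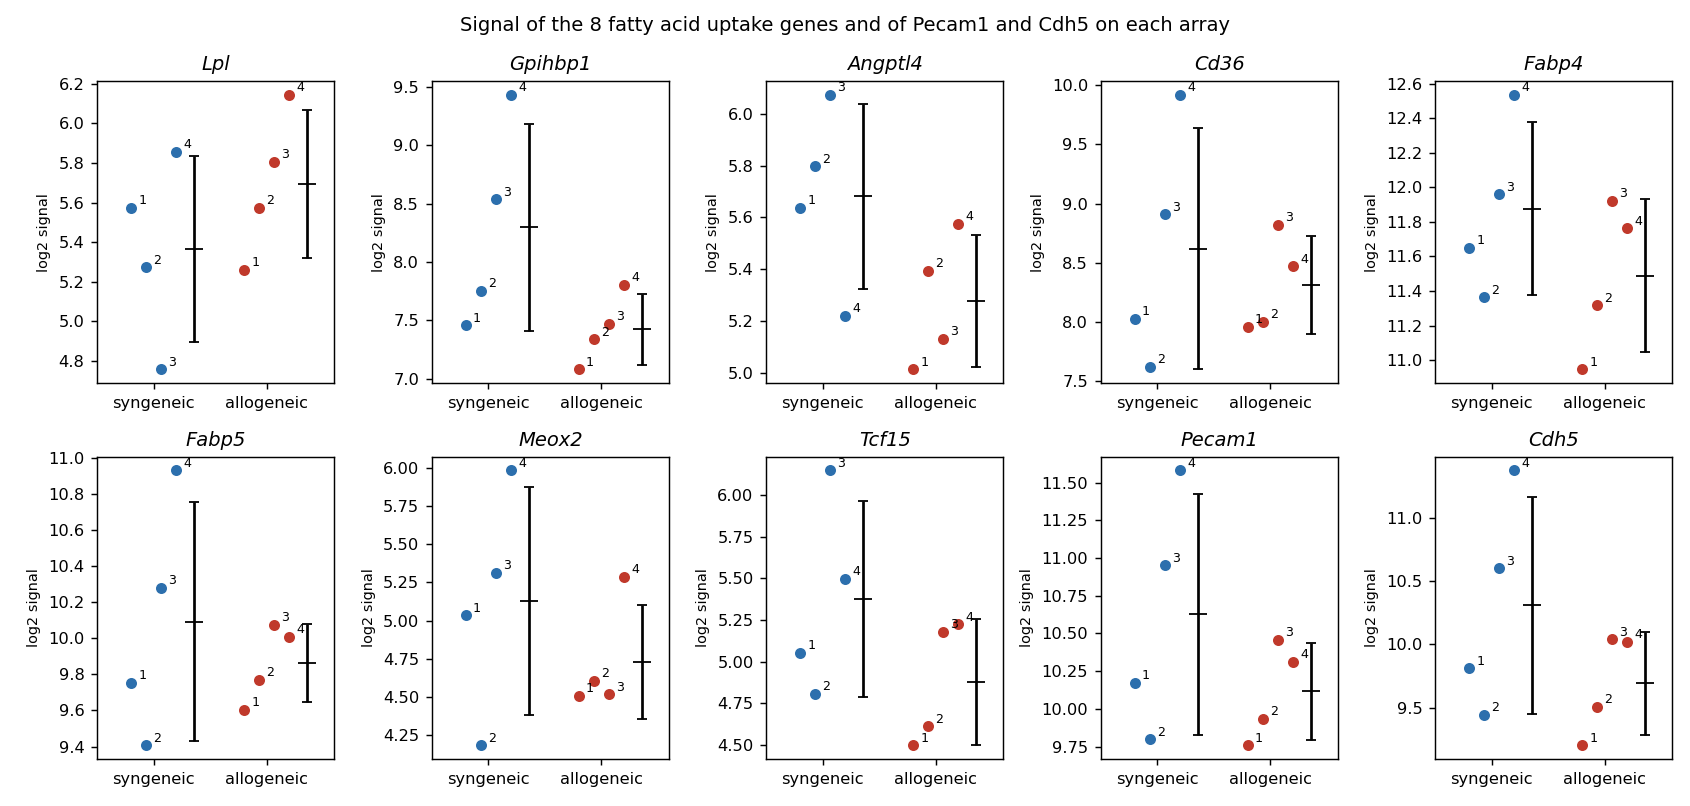
Log2 signal (y axis, a scale of its own for each gene) of the 8 genes and of Pecam1 and Cdh5 on 4 syngeneic arrays (blue) and 4 allogeneic arrays (red), numbered by replicate, with mean and SD as black bars. Groups overlap in every panel, and syngeneic array 4 is the highest for Gpihbp1, Cd36, Fabp4, Fabp5, Meox2, Pecam1 and Cdh5.

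Gpihbp1, the capillary receptor of lipoprotein lipase, had the largest difference. Its signals were 7.08, 7.34, 7.47 and 7.81 on allogeneic arrays 1 to 4, and 7.46, 7.75, 8.54 and 9.43 on syngeneic arrays 1 to 4. Syngeneic arrays 3 and 4 lay above every other array, and syngeneic arrays 1 and 2 lay inside the allogeneic range. The means were 7.42 ± 0.30 and 8.30 ± 0.88 (SD, n = 4 each). The difference of -0.87 ± 0.37 (SE, 95% interval -1.68 to -0.06) missed the threshold over all genes (limma adjusted p = 0.340). Without syngeneic array 4 the change was -0.49 ± 0.26, and without syngeneic arrays 3 and 4 -0.18 ± 0.21.

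Lpl, the lipase itself, read 5.26, 5.57, 5.81 and 6.15 on allogeneic and 5.57, 5.27, 4.76 and 5.86 on syngeneic arrays. Syngeneic array 3 was the lowest and allogeneic array 4 the highest, with the others mixed. The change of 0.33 ± 0.25 (95% interval -0.23 to 0.89) did not pass (limma adjusted p = 0.632). A further Lpl probe set read 2.95 to 3.35, about the level of the Y-linked genes, and its difference had the opposite sign (-0.15).

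Angptl4, the inhibitor of the lipase, read 5.01, 5.39, 5.13 and 5.57 on allogeneic and 5.64, 5.80, 6.07 and 5.22 on syngeneic arrays. Here syngeneic array 4, which was the highest for 5 of the other genes, was the only syngeneic array inside the allogeneic range. The change was -0.40 ± 0.20 (95% interval -0.84 to 0.04, limma adjusted p = 0.424). Without syngeneic array 4 it was -0.56 ± 0.18 (limma adjusted p = 0.215), and it stayed negative, between -0.64 and -0.27, in all 20 alternative settings run, none of which made it pass.

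Cd36, the fatty acid translocase, read 7.96, 8.001, 8.82 and 8.47 on allogeneic and 8.03, 7.62, 8.91 and 9.92 on syngeneic arrays. The syngeneic group held the lowest and the highest array of all 8. The change of -0.31 ± 0.43 (95% interval -1.25 to 0.63, limma adjusted p = 0.817) turned to 0.13 ± 0.30 without syngeneic array 4 and to 0.49 ± 0.25 without syngeneic arrays 3 and 4. Neither passed (limma adjusted p = 0.903 and 0.538).

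Fabp4 and Fabp5 carry fatty acids within the cell and lie side by side in the genome with Pmp2, Fabp9 and Fabp12. Fabp4 had 10.9, 11.3, 11.9 and 11.8 on allogeneic and 11.7, 11.4, 11.96 and 12.5 on syngeneic arrays. Its lowest array was allogeneic array 1 and its highest syngeneic array 4, and the change was -0.39 ± 0.26 (95% interval -0.96 to 0.18, limma adjusted p = 0.567). Fabp5 had 9.60, 9.77, 10.07 and 10.01 on allogeneic and 9.75, 9.41, 10.3 and 10.9 on syngeneic arrays. The syngeneic arrays again held its lowest and its highest value, and the change was -0.23 ± 0.27 (95% interval -0.83 to 0.38, limma adjusted p = 0.783). Fabp5 has 4 probe sets: the brightest pair had changes of -0.23 and -0.27, another read 5.97 to 7.51 with a change of -0.30, and the last read 2.41 to 3.68, about the level of the Y-linked genes, with a change of -0.07. Sequences like Fabp5 occur elsewhere in the mouse genome, so its probe sets may read more than this gene. The neighbours Fabp9 and Pmp2 read 2.62 to 2.89 and 2.89 to 3.47, near the Y-linked genes, and Fabp12 read 3.58 to 4.42.

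Both transcription factors read close to the arrays' medians. Meox2 read 4.51, 4.60, 4.52 and 5.29 on allogeneic and 5.03, 4.18, 5.31 and 5.98 on syngeneic arrays. Allogeneic array 4 stood above the other allogeneic arrays and syngeneic array 2 was the lowest of all, and the change was -0.40 ± 0.33 (95% interval -1.13 to 0.33, limma adjusted p = 0.665). Tcf15 read 4.50, 4.61, 5.18 and 5.23 on allogeneic and 5.05, 4.81, 6.15 and 5.50 on syngeneic arrays. Syngeneic arrays 3 and 4 were its highest, and the change was -0.50 ± 0.28 (95% interval -1.13 to 0.13, limma adjusted p = 0.491).

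The sign of several changes rested on the arrays with the highest endothelial signal. Without syngeneic arrays 3 and 4 the changes of Cd36, Fabp5 (0.28) and Meox2 (0.12) were positive, that of Fabp4 was -0.02 and that of Tcf15 -0.05. With the mean of the endothelial markers as a covariate Cd36 was at 0.53 ± 0.14, Fabp5 at 0.31 ± 0.09 and Fabp4 at 0.09 ± 0.13 (SE, limma adjusted p = 0.166, 0.233 and 0.876). With the epithelial mean as a covariate Cd36 was at 0.71 ± 0.29 and Fabp5 at 0.43 ± 0.19 (limma adjusted p = 0.568 and 0.609). Gpihbp1, Angptl4 and Tcf15 kept a negative change in each of these settings, and Lpl a positive one.

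**Figure D2:**
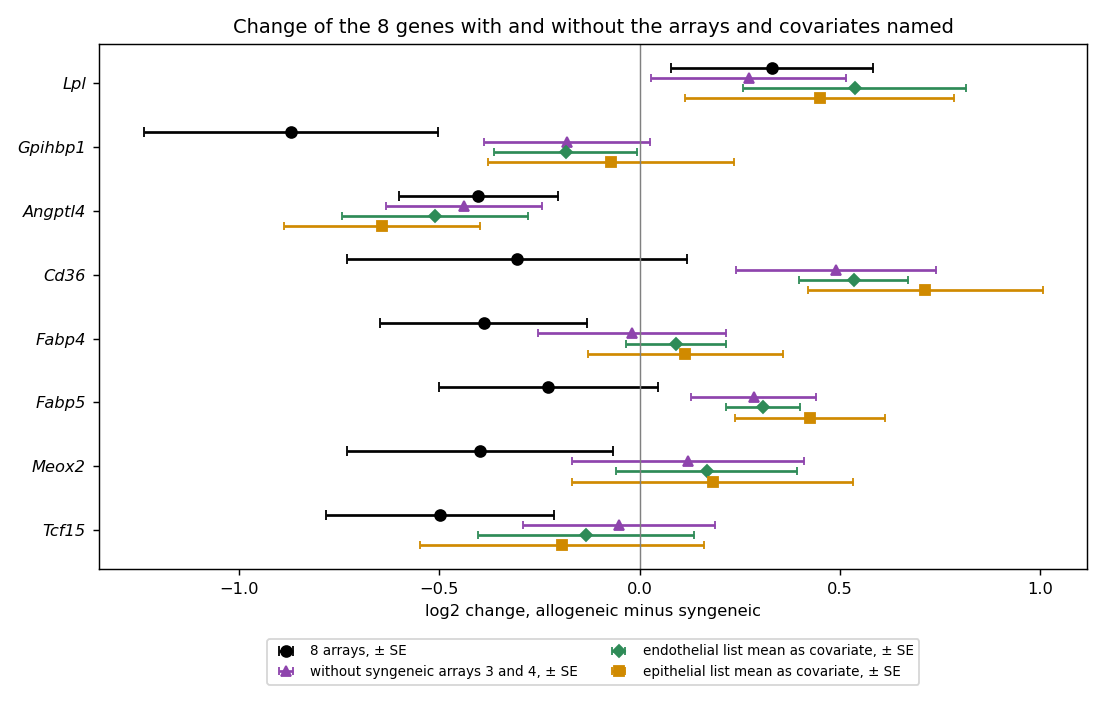
Log2 change, allogeneic minus syngeneic (x axis), of the 8 genes over all 8 arrays (black), without syngeneic arrays 3 and 4 (purple), and with the mean of the endothelial (green) or epithelial (orange) markers as a covariate; bars are SE. Cd36, Fabp5 and Meox2 lie left of 0 with all arrays and right of 0 in the other settings, while Angptl4 stays near -0.4 to -0.6.

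The second question was how the 8 genes moved with Pecam1 and Cdh5 on the same arrays. The mean of these endothelial genes ran from 9.48 on allogeneic array 1 to 11.5 on syngeneic array 4. Over the 8 arrays, in 8 relations computed, Fabp5 followed it most closely by Pearson's r (0.972, Spearman's rho 0.952, exact permutation p = 0.000248 and 0.00114). Cd36 (r = 0.960, rho = 0.976, exact permutation p = 0.000273 and 0.000397) and Fabp4 (r = 0.955, rho = 0.976, exact permutation p = 4.96e-05 and 0.000397) followed it nearly as closely. The values for Gpihbp1 were r = 0.933 and rho = 0.810 (exact permutation p = 0.0030 and 0.0218). Meox2 had r = 0.882 and rho = 0.833 (exact permutation p = 0.00446 and 0.0154), and Tcf15 r = 0.797 and rho = 0.929 (exact permutation p = 0.0191 and 0.00223). Lpl (r = 0.138, rho = 0.405, exact permutation p = 0.735 and 0.327) and Angptl4 (r = 0.090, rho = 0.143, exact permutation p = 0.832 and 0.752) showed no such relation over all arrays. For scale, 1.54% of all genes reached an r of 0.9. Arrays share their normalization and differ in how much endothelial and epithelial RNA they hold, and the part of cell content in these relations was not tested.

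Syngeneic arrays 3 and 4 are the farthest from the median of this mean. Without them r was 0.969 for Fabp4, 0.941 for Tcf15, 0.878 for Fabp5 and 0.852 for Cd36, so these relations were present among the other 6 arrays. For Gpihbp1 r was then 0.476 and for Meox2 0.585, over a narrower range of the mean. The slope within donor groups, described next, was 0.48 ± 0.33 (SE) without both arrays against 0.96 with all for Gpihbp1, and 0.74 ± 0.45 against 0.80 for Meox2. For Lpl r was 0.871 without both arrays against 0.138 with all. Angptl4 stayed at 0.065.

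The relation was also fitted within donor groups. In a limma fit with a term for the group, a unit of the mean of Pecam1 and Cdh5 went with 1.20 ± 0.10 units of Cd36, 0.96 ± 0.15 of Gpihbp1, 0.80 ± 0.18 of Meox2, 0.77 ± 0.07 of Fabp5 and 0.70 ± 0.09 of Fabp4 (SE, limma adjusted p over all genes 0.00103, 0.0106, 0.0493, 0.00103 and 0.00355). These 5 of the 8 genes passed with a positive slope, against 1.74% of all genes. Tcf15 (0.57 ± 0.19), Lpl (0.26 ± 0.22) and Angptl4 (-0.12 ± 0.18) did not pass (limma adjusted p = 0.203, 0.759 and 0.901). All 5 calls were lost without syngeneic array 4, where 0 of the 8 passed, and so did 0% of all genes, with slopes of 1.10 for Cd36, 0.76 for Fabp4, 0.69 for Fabp5, 0.75 for Gpihbp1 and 0.73 for Meox2, and 1.13 for Tcf15. Without syngeneic arrays 3 and 4 again 0 of 8 passed, and in the other fits that left out 1 array 4 or 5 did. The call of Meox2 was the least stable: among the fits that left out 1 array it passed only without allogeneic array 3 (limma adjusted p = 0.0193), and the p ran from 0.0577 to 0.469 in the others. The call of Fabp5 was also lost with the mean of its probe sets (limma adjusted p = 0.0995).

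**Figure D3:**
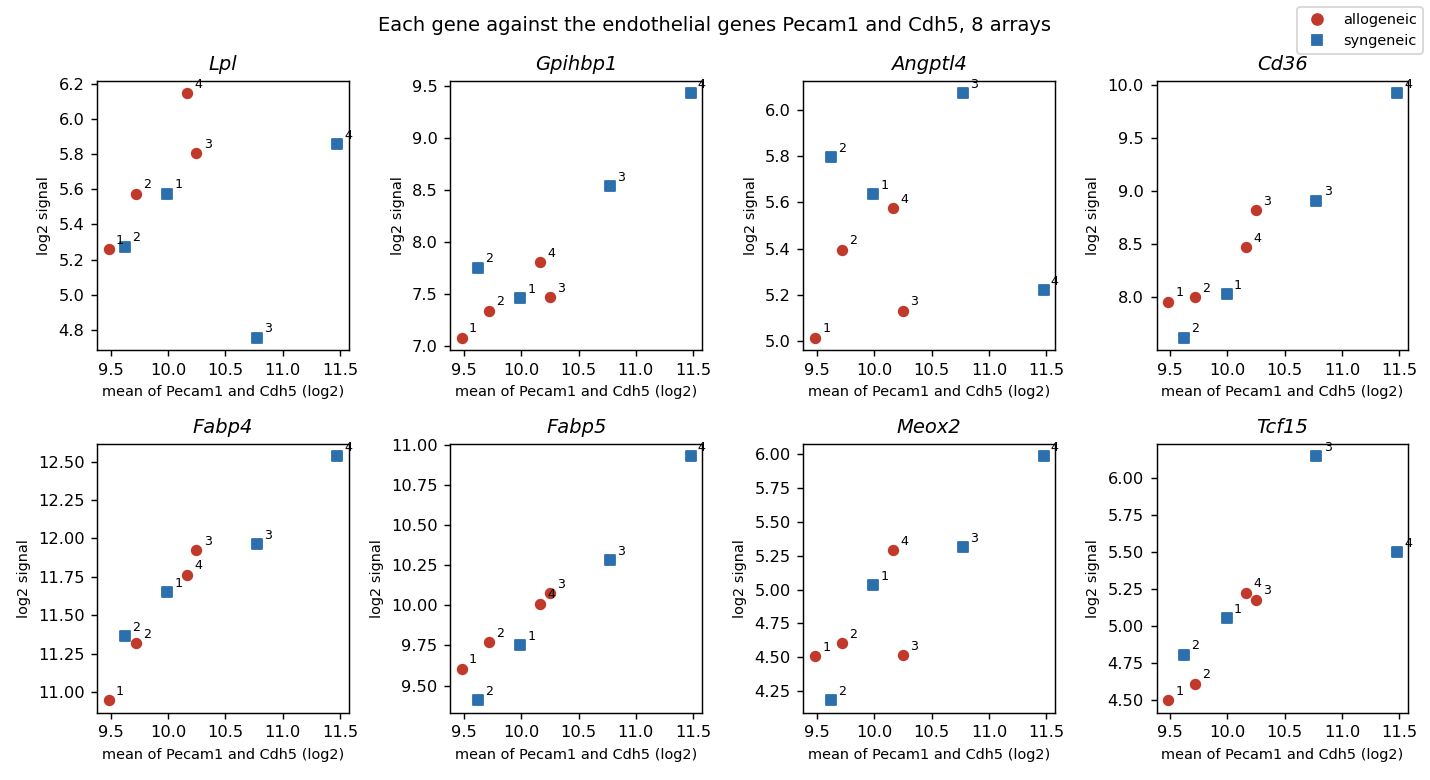
Log2 signal of each of the 8 genes (y axis) against the mean log2 signal of Pecam1 and Cdh5 (x axis) on the 4 allogeneic arrays (red circles) and 4 syngeneic arrays (blue squares), numbered by replicate. Cd36, Fabp4 and Fabp5 rise along a line with r of 0.955 to 0.972, while Lpl and Angptl4 (r of 0.138 and 0.090) do not.

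Set against Pecam1 and Cdh5, none of the 8 genes passed between donor types in limma, with relative changes from -0.31 for Gpihbp1 to 0.89 for Lpl. Because this reference was 0.56 lower in the allogeneic group, a gene that did not move has a relative change of about that size, and the median over all genes was 0.56. The relative change was -0.31 for Gpihbp1, 0.06 for Tcf15, 0.16 for Angptl4 and Meox2, 0.17 for Fabp4, 0.26 for Cd36, 0.33 for Fabp5 and 0.89 for Lpl. Only 2.97% of all genes had a negative relative change, and Gpihbp1 was among them. This was not particular to Gpihbp1 among endothelial genes. The 26 endothelial markers had a median plain change of -0.63, below the -0.56 of the reference. Plvap (-1.48), Eng (-1.43) and Robo4 (-1.08) lay below the plain change of Gpihbp1 (-0.87), while others such as Cldn5 (-0.19) lay above it. The adjusted p in limma ran from 0.536 to 0.916 (SE from 0.51 to 0.55), and 0.207% of all genes passed. With errors of this width, missing the threshold does not show that the groups were alike. In that fit the spread of the shared reference sat in every gene, and a gene's variance was set by its mean signal and not by its own spread. Each gene was therefore also tested by itself over the arrays.

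Fabp5, read from its brightest probe set, was the only gene of the 8 whose groups did not overlap on this relative scale. Its signal minus that of the reference was 0.12, 0.05, -0.17 and -0.16 on allogeneic and -0.24, -0.21, -0.50 and -0.55 on syngeneic arrays. Every allogeneic array lay above every syngeneic array. The two-sided exact permutation p was 0.0286, the smallest that 4 against 4 arrays can give, not adjusted for the 8 genes tested. Of all genes 1.12% had allogeneic arrays wholly above on this scale, and 1.26% had no overlap in either direction. Without syngeneic arrays 3 and 4 the difference was 0.19 (two-sided exact permutation p = 0.133, where 4 against 2 arrays cannot go below 0.0667). The median over all genes moved from 0.56 to -0.10 with these arrays left out, so Fabp5 lay below the median gene with all arrays and above it without them. By the other bright probe set of Fabp5 the groups overlapped on this scale. That probe set read 9.50 on syngeneic array 2, where the reference was 9.62, and 10.06 on allogeneic array 3, where the reference was 10.25. The separation of the groups thus rested on the choice of probe set.

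The other genes overlapped. Cd36 had -1.53, -1.72, -1.43 and -1.69 on allogeneic and -1.97, -2.002, -1.87 and -1.56 on syngeneic arrays, with syngeneic array 4 alone inside the allogeneic range (two-sided exact permutation p = 0.0857). Lpl had -4.22, -4.15, -4.44 and -4.02 on allogeneic and -4.42, -4.35, -6.02 and -5.62 on syngeneic arrays, so that its difference of 0.89 came from syngeneic arrays 3 and 4 and was 0.17 without them (two-sided exact permutation p = 0.0857 with and 0.333 without). Gpihbp1 had -2.40, -2.38, -2.78 and -2.36 on allogeneic and -2.53, -1.87, -2.24 and -2.05 on syngeneic arrays, with syngeneic array 1 inside the allogeneic range (two-sided exact permutation p = 0.171). Without syngeneic arrays 3 and 4, where the median over all genes was -0.10 in place of 0.56, the values were -0.12 for Fabp4, -0.54 for Angptl4 and -0.15 for Tcf15, so their signs turned together with that of the median gene. For Fabp4, Meox2, Angptl4 and Tcf15 over all arrays the p was 0.400, 0.457, 0.800 and 0.971 by the same exact permutation test. Tcf15 ranged over only 0.17 among the allogeneic arrays but over 1.35 among the syngeneic ones, where syngeneic array 4 was at -5.98. With the reference as a covariate in place of a subtraction, Cd36 was at 0.37 ± 0.13, Fabp5 at 0.20 ± 0.09, Gpihbp1 at -0.33 ± 0.19 and Angptl4 at -0.47 ± 0.22 (SE, limma adjusted p = 0.300, 0.448, 0.592 and 0.490), and none of the 8 passed, against 0.320% of all genes.

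**Figure D4:**
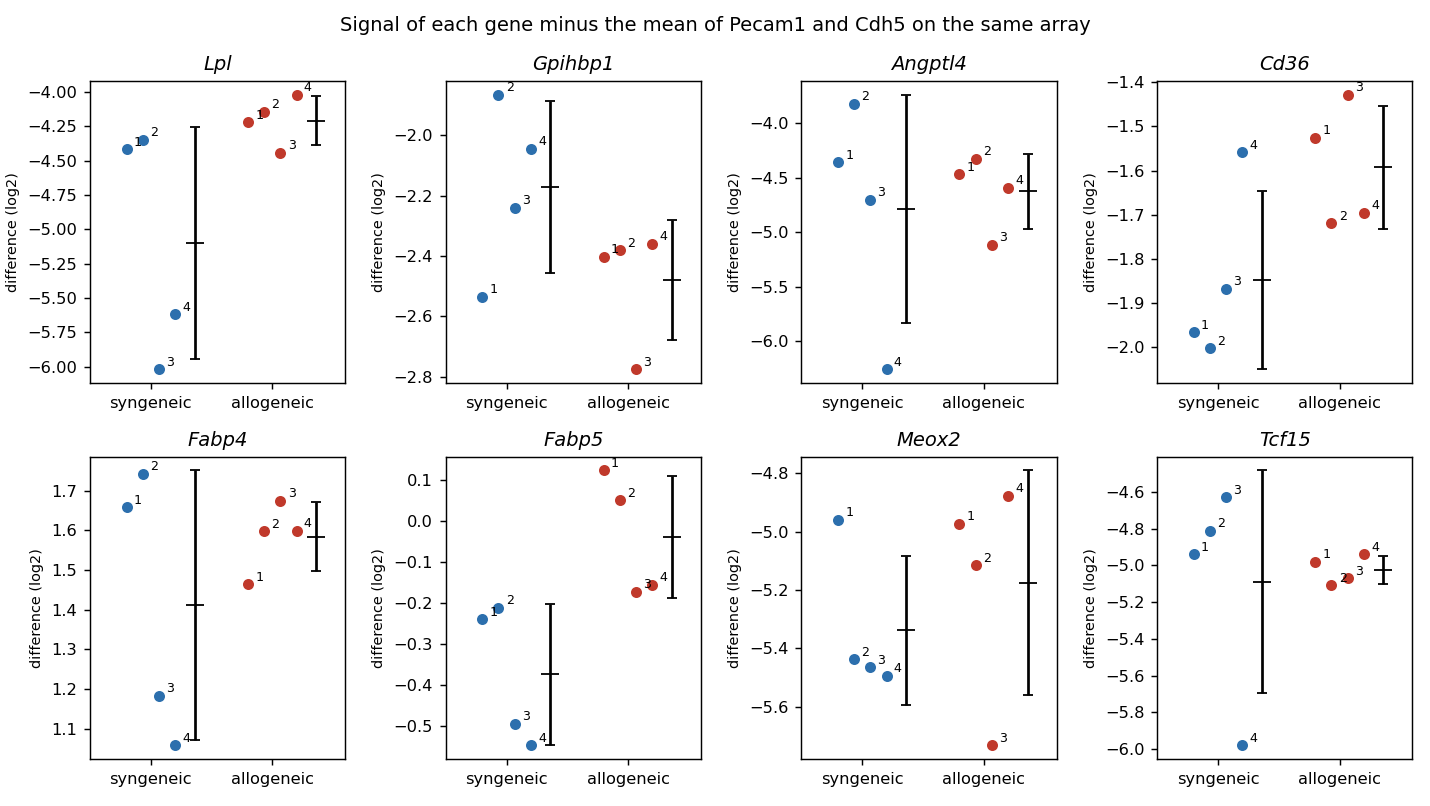
Log2 signal of each gene minus the mean of Pecam1 and Cdh5 on the same array (y axis) for 4 syngeneic (blue) and 4 allogeneic (red) arrays, numbered by replicate, with mean and SD as black bars. Groups are separate in Fabp5 alone (allogeneic -0.17 to 0.12, syngeneic -0.55 to -0.21), and syngeneic arrays 3 and 4 sit low for Lpl and Fabp4. Each gene is shown by its brightest probe set, and by the other bright probe set of Fabp5 the groups overlap.

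Among themselves, the genes fell into those that varied together and those that did not. Cd36 and Fabp5 had r = 0.990 over the 8 arrays, Cd36 and Fabp4 0.908, and Fabp5 and Meox2 0.884. Meox2 and Tcf15, which act as a pair, had r = 0.672. Lpl had r between -0.493 (with Angptl4) and 0.303 (with Fabp4) to the other 7 genes, with 0.021 to Gpihbp1, its receptor. These values describe 8 arrays, 2 of which stand apart, and carry no test.

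The genes nearest to each by r, among all 22180 and likewise without a test, are given by rank. For Cd36 they were Fabp5, Scarb1 (0.988), which encodes a receptor for high-density lipoprotein, and Afap1l1 (0.980). For Fabp5 they were Jam2 (0.992), an endothelial junction protein, Cd36 and Cd34 (0.988), a surface protein of capillary endothelium. Fabp4 was nearest to Sufu (0.988), Ramp2 (0.980), which forms the adrenomedullin receptor with its partner, and Def8 (0.977). Gpihbp1 was nearest to the ETS factor gene Elk3 (0.990), the cytokine receptor subunit gene Csf2rb (0.988) and the RNA-editing enzyme gene Adarb1 (0.988), and Meox2 to Ctdsp1 (0.986), Pea15a (0.985) and Tmem176a (0.973). Tcf15 was nearest to Adamtsl1 (0.962), Lgmn (0.961) and Actl9 (0.958), Lpl to Dhdh (0.961), Rbm48 (0.948) and Zfp473 (0.939), and Angptl4 to Lhx1 (0.966), Trpc2 (0.960) and Vwa2 (0.955). Actl9 averaged 3.31, near the Y-linked genes.

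Markers of other cells that use these genes were looked at on the same arrays. The mean over 10 adipocyte markers was 5.04 to 5.15 on allogeneic and 5.19 to 5.80 on syngeneic arrays. These means did not overlap, by a narrow gap (5.15 against 5.19). Taken singly, 0 of the 10 markers had groups that did not overlap, against 8.55% of all genes. Syngeneic array 4 was the highest, with Lipe (hormone-sensitive lipase) at 7.06 and Retn (resistin) at 7.26, and the defining gene Adipoq, which encodes adiponectin, was also highest there at 5.11, against 4.18 to 4.84 on the other arrays. Retn also read 6.53 on allogeneic array 2. Of the 10 markers 8 had a negative change, with a median of -0.23, while that of Adipoq was 0.02 (limma adjusted p = 0.930). Thrsp (mean 6.85), Plin4 (5.99) and Lipe (5.95) had the highest means, and Thrsp had the largest change (-0.89, limma adjusted p = 0.251). The mean over 16 myeloid markers was 5.67 to 6.23 on allogeneic and 5.73 to 6.04 on syngeneic arrays, with Ptprc, which encodes CD45, averaging 5.20 and Itgam, which encodes CD11b, 5.34. Other myeloid markers were brighter, with the highest means for Mertk (8.26), Cd14 (7.37) and C1qa (7.15). The mean over 15 mural and fibroblast markers was 7.91 to 8.71 against 7.85 to 8.44, and includes Dcn (mean 10.8), Tagln (9.96) and Dpt (9.85). Epithelial markers, which include Car1 (mean 12.997), Muc2 (12.8) and Agr2 (12.4), averaged 10.4 to 10.6 on allogeneic and 9.86 to 10.4 on syngeneic arrays. No marker of these lists passed between donor types, and none averaged at or below the level of the Y-linked genes. All 26 endothelial markers had a negative change, with a median of -0.63 against -0.40 for the 8 genes. An unadjusted p below 0.05 in limma was reached by 8 of the 26, against 5.43% of all genes with a lower allogeneic mean. For 2 of the 26 all allogeneic arrays lay below all syngeneic arrays, against 3.36% of all genes. Of 13 capillary markers 10 had a negative change, with a median of -0.44. Of 24 epithelial markers 20 had a positive change, with a median of 0.18. An unadjusted p below 0.05 in limma was reached by 7 of the 24, against 13.2% of all genes in either direction. For 6 of the 24 all allogeneic arrays lay above all syngeneic arrays, against 5.18% of all genes. The 13 capillary markers include Sparcl1 (mean 10.97), Kdr (9.92), which encodes the main VEGF receptor, and Plvap (9.91). Kdr and Plvap are also on the list of 26 endothelial markers. Of 6 lymphatic markers, which include Lyve1 (mean 8.77), 4 had a positive change and none passed. The part of these cell types in the changes of the 8 genes was not tested.

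The wider pathway held 135 listed genes, of which 120 were measured. Hadha rose and none fell at an adjusted p below 0.05, against 0.356% of all genes higher and 0.113% lower. Of the 120 genes 63 had a positive and 57 a negative change, with a median of 0.03.

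Among 20 measured PPAR target genes Hadha rose, 19 did not pass, and 13 had a positive change (median 0.20). Hadha, a subunit of the trifunctional enzyme of mitochondrial fatty acid oxidation, read 9.72, 9.77, 9.62 and 9.86 on allogeneic and 9.08, 8.96, 9.05 and 8.71 on syngeneic arrays. All allogeneic arrays lay above all syngeneic arrays, and the group means differed by 0.79 ± 0.12 (SE, log2 scale, limma adjusted p = 0.0238). The call was lost with the epithelial covariate, with the endothelial covariate, with the replicate number as a block, and when any of 5 of the 8 arrays was dropped (it was kept without allogeneic array 3, syngeneic array 2 or syngeneic array 4). The difference itself stayed between 0.71 and 0.84 whichever array was dropped (limma adjusted p from 0.0217 to 0.0992), and was 0.64 with the epithelial covariate, 0.70 with the endothelial covariate and 0.79 with the block (limma adjusted p = 0.197, 0.0542 and 0.0632). Cpt1a, which admits fatty acids to mitochondria (0.65), and Ehhadh of the peroxisome (0.64) did not pass (limma adjusted p = 0.0869 and 0.143).

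Of 18 measured genes of fatty acid transport and activation none passed. Mfsd2a, an endothelial transporter of lipids that carry docosahexaenoic acid, came closest. It read 7.99, 7.70, 8.34 and 7.21 on allogeneic and 9.29, 9.46, 8.94 and 8.69 on syngeneic arrays, so all allogeneic arrays were lower. The change was -1.29 ± 0.24 (limma adjusted p = 0.0526), just short of the threshold. It passed with robust eBayes, the filter on dim genes, array weights, the replicate number as a block, the endothelial covariate and without syngeneic array 4 (limma adjusted p from 0.0332 to 0.0496). The other settings did not call it, among them the epithelial covariate (-1.50, limma adjusted p = 0.200) and the fit without syngeneic arrays 3 and 4 (-1.57, limma adjusted p = 0.0692). Of the 8 fits that left out 1 array only 1 called it. The change ranged from -1.46 to -1.09 in these 8 fits, with limma adjusted p up to 0.163. Unlike most of the 8 genes, it was lower, not higher, on syngeneic arrays 3 and 4 than on 1 and 2. The fatty acid transport protein genes Slc27a1 (0.72) and Slc27a2 (0.72) did not pass (limma adjusted p = 0.117 and 0.307).

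The remaining lists had no gene past the threshold. Of 14 genes of lipoprotein lipolysis, Glce (0.44), which modifies heparan sulfate, Lmf2 (-0.60), a relative of the lipase maturation factor, and Furin (-0.35), a protease that cleaves lipase and angiopoietin-like proteins, had the smallest p (limma adjusted p = 0.131, 0.137 and 0.296). Of 11 other lipid-binding proteins Fabp2, the enterocyte form, was at 1.21 ± 0.27 with allogeneic arrays at 10.8 to 11.1 and syngeneic arrays at 9.15 to 10.4 (limma adjusted p = 0.0842), Rbp2 at 0.80 and Fabp3 at -0.24. Fabp2 is itself an epithelial marker here. Of 12 lipoprotein and scavenger receptors Cd9 (0.39), Lrp8 (-0.62) and Stab1 (-0.67) had the smallest p (limma adjusted p = 0.223, 0.282 and 0.290). Of 26 upstream signals and regulators these were Rbpj (0.64), which transmits Notch signals, Hif1a (-0.51) and the coactivator gene Ppargc1a (0.94), with limma adjusted p = 0.142, 0.168 and 0.241. Of 22 genes of lipid droplets and storage they were Dgat1 (0.48), which makes triglycerides, Plin5 (-0.46) and Plin4 (-0.45), with limma adjusted p = 0.223, 0.279 and 0.318.

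**Figure D5:**
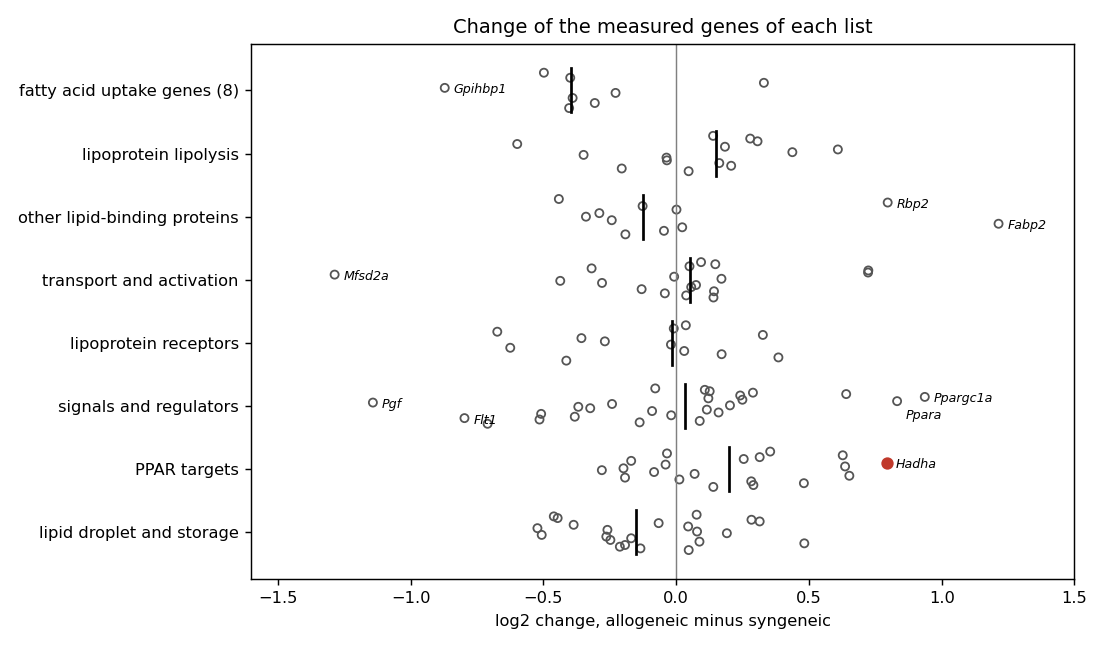
Log2 change, allogeneic minus syngeneic (x axis), of each measured gene (circle) of the 8 fatty acid uptake genes and of 7 pathway lists (rows), with the list's median as a black line and genes past an adjusted p of 0.05 filled red; names mark changes of 0.79 or more in size. Hadha is the only filled point, and the median of the 8 genes (-0.40) is the lowest of the rows.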

How the data were processed

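RNA of sorted colon endothelial cells was read on 8 Affymetrix Mouse Gene 2.0 arrays. Per the submitters' processing notes the authors used RMA in Affymetrix Expression Console 1.4.1, and the deposited values are on the log2 scale. No genome build is given in the sources used here. Of 41345 probe sets 23521 carry a single symbol, 1814 several and 16010 none, and the probe set with the highest mean stood for each of 22180 genes. Groups were compared with limma 3.58.1 in R 4.3.3 (lmFit, eBayes with an intensity trend, two-sided, Benjamini-Hochberg, threshold 0.05). The code was also run on simulated data in which genes varied independently. Such data lack the shared differences in cell content of these arrays, so that run cannot show how the fit behaves here. The fit was repeated after subtracting each array's mean of Pecam1 and Cdh5, and exact permutation tests over arrays were added after seeing the data. The number of arrays limits the precision. Members and lists were chosen with earlier results of these data known. Named genes were the 8 members, and of each pathway list those past the threshold or else the 3 with the smallest p. Of most marker lists the 3 with the highest mean were named, and for each member the 3 with the highest r. Ptprc, Itgam, Adipoq, Eng, Robo4 and Cldn5 were named outside these rules, and so was Plvap for its change. Ehhadh, Cpt1a, Slc27a1, Slc27a2, Fabp9, Pmp2, Fabp12, Retn and Lipe were added after their values were seen.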

Additional observations from a re-analysis of the deposited data

Results flagged for a closer look

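A single array stood apart within its group of 4 by Dixon's criterion in 4 of 50 groups of values examined, and chance alone marks about 1 in 20. Meox2 read 5.29 on allogeneic array 4 against 4.51 to 4.60 on the other allogeneic arrays. Gpihbp1 minus the mean of Pecam1 and Cdh5 was -2.78 on allogeneic array 3 against -2.40 to -2.36. Meox2 on the same relative scale was -4.96 on syngeneic array 1 against -5.49 to -5.44. The mean of the adipocyte markers was 5.80 on syngeneic array 4 against 5.19 to 5.22 on the other syngeneic arrays.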

How the results depend on the processing

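No member passed or lost a call in limma under any alternative, on the plain or the relative scale, and median centring and quantile normalization turned no member's sign. The plain change turned positive without syngeneic replicate 4 for Cd36 (0.127) and Fabp5 (0.0507), and without syngeneic arrays 3 and 4 for Cd36 (0.489), Fabp5 (0.284) and Meox2 (0.121). It turned with the epithelial covariate for Cd36 (0.713), Fabp4 (0.114), Fabp5 (0.425) and Meox2 (0.182), and with the endothelial covariate for Cd36 (0.534), Fabp4 (0.0905), Fabp5 (0.308) and Meox2 (0.167). Over the fits that left out 1 array the plain change ran from -0.640 to 0.127 for Cd36 and from -0.457 to 0.0507 for Fabp5. Lpl turned to -0.150 with its lowest probe set. Relative to Pecam1 and Cdh5, array weights, whose estimation stopped before convergence and which called 2857 genes against 46 and moved the median gene from 0.558 to 0.0715, turned Fabp4 (-0.0617), Gpihbp1 (0.0736), Angptl4 (-0.232), Meox2 (-0.197) and Tcf15 (-0.0937). Leaving out syngeneic replicate 4 turned Angptl4 (-0.331, with a range over left-out arrays up to 0.481) and Tcf15 (-0.231, up to 0.218), leaving out syngeneic arrays 3 and 4 turned Fabp4 (-0.116), Angptl4 (-0.535) and Tcf15 (-0.149), and the reference as a covariate turned Angptl4 (-0.473) and Tcf15 (-0.178). The cause was not tested.

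In the exact permutation test, added after seeing the data, 1 member (Fabp5, by its brightest probe set) had an unadjusted p below 0.05 on the relative scale. Without syngeneic arrays 3 and 4 it had p = 0.133 by the same exact test. Pathway genes called higher numbered 1, and 0 with the replicate block, the epithelial or the endothelial covariate, 2 without syngeneic arrays 3 and 4, and 0 to 3 when 1 array was left out. Those called lower numbered 0, and 1 (Mfsd2a) with robust eBayes, the filter on dim genes, array weights, the replicate block or the endothelial covariate, 1 (Fabp6) without syngeneic arrays 3 and 4, and 0 to 1 (Mfsd2a) when 1 array was left out. Members with a called slope numbered 5, and 3 with the lowest probe set, 0 with the replicate block or without syngeneic arrays 3 and 4, and 0 to 5 when 1 array was left out. Over all genes 104 passed, and 8 to 180 when 1 array was left out, 193 with the filter on dim genes, 68 with the replicate block, 69 with quantile normalization, 38 without syngeneic arrays 3 and 4, 41 with the endothelial and 7 with the epithelial covariate. Over all genes same-numbered arrays did not deviate together (r from -0.0963 to 0.0954), which cannot show whether the replicate numbers pair the samples. The mean of Pecam1 and Cdh5 was lower on arrays 1 and 2 than on 3 and 4 in both groups. With the replicate block the SE of the plain change fell for every member (Fabp4 from 0.257 to 0.139) but Angptl4 (0.199 to 0.214). On the relative scale 453 genes passed with the block, against 46. Whether the samples are paired is not known. Meox2 and Tcf15 have no value under the filter on dim genes, which removes genes below the median gene.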

Other observations

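Fabp6, the ileal bile acid binding protein, varied more among the syngeneic arrays than between groups. It read 7.09, 7.42, 7.20 and 8.12 on allogeneic and 9.20, 9.86, 6.43 and 5.69 on syngeneic arrays, so that syngeneic arrays 1 and 2 lay above and syngeneic arrays 3 and 4 below all allogeneic arrays. Without syngeneic arrays 3 and 4 its log2 change was -2.08 (limma adjusted p = 0.0365). Scarb1, the receptor for high-density lipoprotein whose r with Cd36 was 0.988, read 8.47, 8.46, 9.13 and 8.91 on allogeneic and 8.51, 8.44, 9.33 and 10.1 on syngeneic arrays, with syngeneic array 4 the highest. Lipg, endothelial lipase, read 8.59, 8.24, 8.25 and 7.85 on allogeneic and 8.20, 7.85, 7.42 and 7.03 on syngeneic arrays, and syngeneic arrays 3 and 4 were its lowest. These genes were chosen after their values were seen.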
